A study of Homo sapiens with 4 samples.

Results

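The genes described here were 10 genes of the HOXA cluster and the KMT2A (MLL) fusion programme, HOXA5, HOXA7, HOXA9, HOXA10, MEIS1, PBX3, MEF2C, KMT2A, MEN1 and DOT1L. They were chosen by name for their known part in KMT2A-rearranged leukemia and not by a cutoff on measured values, though earlier results of these data were known. All 10 were among the 18885 genes listed. RNA was sequenced from MV4-11, a human AML cell line that carries the KMT2A-AFF1 fusion, in 2 libraries of a control group (sh-NC) and 2 libraries of cells with ANP32B knocked down by shRNA (sh-ANP32B). ANP32B encodes an acidic nuclear phosphoprotein that binds histones. The study asked which genes respond to loss of ANP32B in AML cells. The knockdown columns carry the mark S3, which the labels do not explain and which was read as 1 of the study's hairpins, in stable lentiviral lines selected with puromycin. The sample labels give the control cells no shRNA and no treatment, whereas the study's methods name an sh-NC control, so an effect of transduction or selection cannot be told apart from loss of ANP32B. If S3 marks 1 hairpin, effects of that hairpin on other transcripts cannot be told apart from loss of ANP32B either. Nothing in the labels says that the libraries of a group came from separate cultures, and the p-values below then measure only the spread between these libraries, which may be technical.

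In KMT2A-rearranged leukemia, the amino-terminal part of KMT2A, a histone H3 lysine 4 methyltransferase, is joined to a partner such as AFF1, which belongs to the machinery of transcription elongation. The fusion protein is held at its target genes by menin, the product of MEN1, and draws in DOT1L, the histone H3 lysine 79 methyltransferase, and elongation factors. Its best known targets are the posterior HOXA genes and MEIS1. HOXA9 and MEIS1 proteins bind DNA together, PBX3 is a further homeodomain partner of the same complexes, and MEF2C is a MADS-box transcription factor that is also highly expressed in this leukemia.

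The promoters of 3 of these genes are shown because HOXA9, HOXA10 and MEIS1 are the classical targets of the fusion, and HOXA10 and MEIS1 were the 2 genes with the lowest log2 fold changes of the 10. The sequences are from RefSeq (GRCh38.p14). Of the 10 genes, 8 had a promoter entry, and HOXA5 and DOT1L had none. Each run holds the 250 bases before a RefSeq transcription start, written 5′ to 3′ on the strand of the gene, and these 3 windows overlap no annotated exon on either strand. Capitals mark CACGTG (the E-box that MYC proteins can bind), CCAAT or its reverse complement ATTGG, and TATAAA or its reverse complement TTTATA. The HOXA9 window lies at chr7:27165538-27165787 on the minus strand, the HOXA10 window, from the inner of its 2 starts, at chr7:27174321-27174570 on the minus strand, and the MEIS1 window at chr2:66434875-66435124 on the plus strand.
HOXA9: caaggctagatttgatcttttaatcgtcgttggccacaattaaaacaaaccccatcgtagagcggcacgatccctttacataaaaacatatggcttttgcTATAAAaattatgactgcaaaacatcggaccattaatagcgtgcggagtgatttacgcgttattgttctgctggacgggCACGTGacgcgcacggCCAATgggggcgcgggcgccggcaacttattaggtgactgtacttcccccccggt
HOXA10: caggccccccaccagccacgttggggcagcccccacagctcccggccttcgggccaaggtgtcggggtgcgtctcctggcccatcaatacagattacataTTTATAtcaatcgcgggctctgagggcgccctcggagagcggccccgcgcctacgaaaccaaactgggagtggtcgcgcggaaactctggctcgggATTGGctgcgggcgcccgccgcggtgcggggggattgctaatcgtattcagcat
MEIS1: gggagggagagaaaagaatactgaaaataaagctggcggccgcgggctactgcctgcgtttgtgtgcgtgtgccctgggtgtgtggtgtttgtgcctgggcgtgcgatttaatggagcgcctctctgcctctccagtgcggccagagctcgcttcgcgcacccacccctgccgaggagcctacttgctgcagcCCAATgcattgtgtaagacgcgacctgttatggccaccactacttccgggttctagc
The 3 windows held 20, 24 and 16 CG dinucleotides in that order. CCAAT was found in each, 55, 54 and 57 bases before the start, and TATAAA in HOXA9 and HOXA10, in both 150 bases before the start. At the outer start of HOXA10, whose window is not shown, the places differed, with CCAAT 249 and TATAAA 222 bases before the start. CACGTG was found in HOXA9 alone, 71 bases before the start. Of all 35116 promoters of the same length, 32.0% held CCAAT, 10.7% TATAAA and 6.34% CACGTG on either strand. The MEIS motif TGACAG (13.03% of promoters) and the composite PBX-HOX motif TGATTNAT (2.48%) were not found in these 3 windows. The matches describe the letters only.

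Values are TPM as deposited, a measure of reads per transcript length in which every library adds up to a common total, so levels of different genes can be compared. Log2 fold changes are sh-ANP32B against sh-NC on the log2(TPM + 1) scale, with the standard error (SE) and the Benjamini-Hochberg adjusted p of limma over the 16937 genes that reached 1 TPM in 2 libraries or more. The added 1 makes log2 fold changes of genes with low TPM smaller in size than their ratio of means. A gene is said to rise or fall where its adjusted p was below 0.05. ANP32B itself stood at 358 and 364 TPM in the control libraries and at 54.1 and 49.3 TPM after knockdown, that is 14.3% of the control. The response was broad, with 45.7% of all genes tested passing the test, 3342 lower and 4405 higher, and with a median log2 fold change of 0.08. With quantile normalization the median moved to -0.04 (a shift of -0.12), with 3936 genes lower and 3534 higher, and with median-of-ratios scaling it was -0.00, with 4195 lower and 3579 higher. TPM keep no read numbers, so depth is unknown. Mitochondrial genes held 15.4% to 15.9% of TPM in sh-NC and 17.4% to 17.6% in sh-ANP32B.

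The myeloid identity of MV4-11 was visible in both groups, as 6 of 8 myeloid markers had at least 1 TPM in every library. Their summed level differed widely, from 1165 and 1168 TPM in control cells to 6395 and 6341 TPM in sh-ANP32B, and most of the sh-ANP32B sum was LYZ (lysozyme), at 471 and 463 against 5308 and 5260 TPM. ITGAM, the monocyte integrin CD11b, stood at 3.51 and 3.59 against 26.1 and 26.4 TPM. Of the other myeloid markers, CD33, CD4 and SPI1 were higher too, and MPO was not listed. CSF1R stood at 0.960 and 1.39 against 2.36 and 2.04 TPM, and FLT3 at 6.20 and 6.30 against 5.52 and 5.53 TPM. No marker of T cells (of 5), erythroid cells (of 5), epithelial cells (of 4) or fibroblasts (of 4) was listed, and of 4 megakaryocyte markers only ITGA2B was, at no more than 1.30 TPM. Of 3 B cell markers, 2 were listed, summing to 3.51 and 4.70 TPM in control cells and to 2.20 and 3.36 TPM after knockdown, most of it PAX5, and MS4A1 was not listed. The part of this shift in the results below was not tested. In bulk RNA, fewer cells of a type and less RNA of a gene per cell cannot be told apart.

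After ANP32B knockdown, HOXA10, MEIS1 and DOT1L fell, HOXA7 and MEF2C rose, and HOXA9, HOXA5, PBX3, KMT2A and MEN1 did not pass the test. The groups did not overlap for 4 genes that were lower (HOXA9 besides the 3 that fell, against 32.1% of all genes) and for 2 that were higher (against 42.5%). The 3 genes that fell compare with 19.7% of all genes tested, and the 2 that rose with 26.0%, so that 5 of 10 genes were called against 45.7% of all genes, a share near that background. The study's limits were a p under 0.05 and a log2 fold change past 0.5 in size. Applied to the unadjusted limma p, they gave 2 genes lower (HOXA10 and MEIS1, against 10.8% of all genes). They gave 1 gene higher (MEF2C, against 20.2% of all genes). The study applied its limits to DESeq2, so these are not its counts. The median log2 fold change of the 10 genes was -0.09, against 0.08 for all genes. With median-of-ratios scaling the counts were 4 lower and 1 higher, since HOXA9 then passed and HOXA7 did not.

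**Figure D1:**
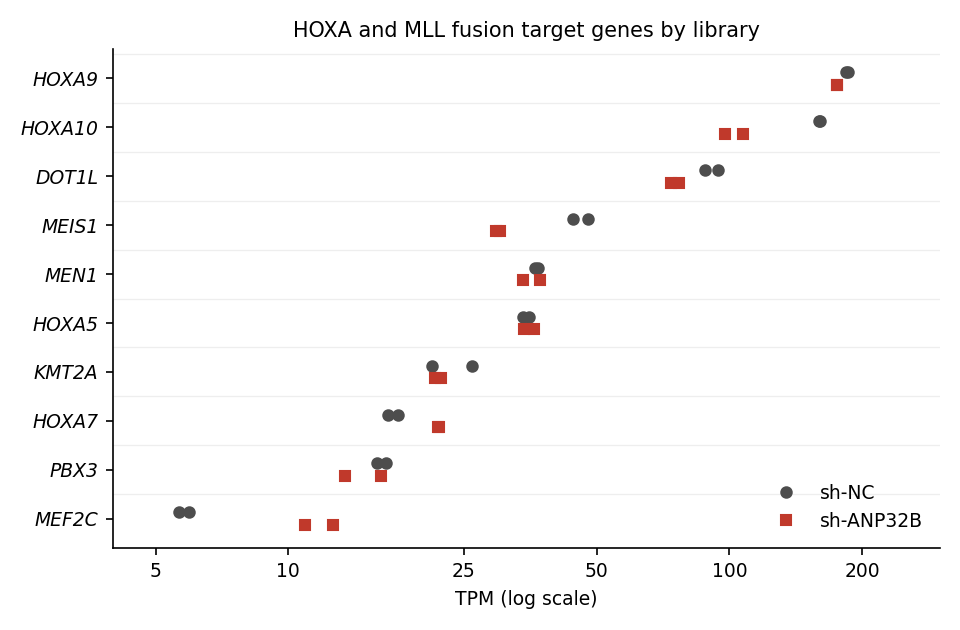
Level of each gene in TPM (log axis) in the 2 sh-NC libraries (circles) and the 2 sh-ANP32B libraries (squares), ordered by the sh-NC mean. HOXA10 and MEIS1 stand clearly lower and MEF2C clearly higher in sh-ANP32B, whereas the libraries of HOXA5, PBX3, KMT2A and MEN1 overlap between the groups.

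HOXA9 and HOXA10 were the 2 highest of the 10 genes. The HOXA genes lie in 1 cluster on chromosome 7 (hg38), all on the minus strand, and encode homeodomain transcription factors. HOXA9 (ENSG00000078399, chr7:27162438-27175180) drives self-renewal of hematopoietic progenitors and is a central effector of KMT2A fusions. It stood at 184 and 186 TPM in sh-NC and at 175 and 176 TPM in sh-ANP32B. Both knockdown libraries lay below both controls, but by little, with means of 185 ± 1.32 and 176 ± 0.484 TPM (SD, n = 2 each). The log2 fold change was -0.07 (SE 0.0371, limma adjusted p = 0.155), with a 95% confidence interval from -0.17 to 0.02, and HOXA9 did not pass the test. With median-of-ratios scaling it did, at -0.17 (limma adjusted p = 0.0165).

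HOXA10 (ENSG00000253293, chr7:27170605-27180261), a neighbour of HOXA9 that also blocks myeloid maturation when forced, had nearly the same level in control cells, 159.7 and 161 TPM. In sh-ANP32B it stood at 97.9 and 107 TPM. The groups were far apart, with means of 160.3 ± 0.848 and 103 ± 6.58 TPM (SD, n = 2 each), and the knockdown mean was 64.0% of that of the controls. HOXA10 had a log2 fold change of -0.64 (SE 0.0555, limma adjusted p = 5.96e-04), and 7.11% of all genes tested had a lower one. The difference between the neighbours shows within each library, where scaling by a common factor cancels, since HOXA10 over HOXA9 was 0.868 and 0.866 in sh-NC and 0.559 and 0.609 after knockdown. Other annotated transcripts share bases with both genes. The unnamed gene ENSG00000257184 spans both on the same strand and shares 397 exonic bases with HOXA9 and 368 with HOXA10, and it stood at 0.182 and 12.97 TPM in sh-NC and at 4.81 and 10.5 TPM in sh-ANP32B, a spread within the control group far wider than the difference of means. How reads in shared bases were divided is not given in the sources used here.

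HOXA7 (ENSG00000122592, chr7:27153716-27157936), a further HOXA target of the fusion, stood at 17.7 and 16.8 TPM in sh-NC and at 21.9 and 21.8 TPM in sh-ANP32B. It rose to 127% of the control mean, with a log2 fold change of 0.32 (SE 0.0784, limma adjusted p = 0.0209). The groups did not overlap, but the call was lost with median-of-ratios scaling (0.23, limma adjusted p = 0.0647) and whenever any 1 library was left out (limma adjusted p from 0.0525 to 0.0846). Of its exonic bases, 62.5% are shared with the antisense gene HOXA-AS3, and since strand handling is not given, reads of the pair cannot be told apart. HOXA-AS3 stood at 6.81 and 3.16 TPM against 9.74 and 3.68 TPM, with overlapping groups.

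HOXA5 (ENSG00000106004, chr7:27141052-27143681), which acts in myeloid commitment, stood at 35.2 and 34.1 TPM in sh-NC and at 34.2 and 36.1 TPM in sh-ANP32B. The libraries overlapped, and the log2 fold change of 0.02 (SE 0.0643, limma adjusted p = 0.846) had a 95% confidence interval from -0.14 to 0.18. Its sign turned with quantile normalization and with median-of-ratios scaling, so that no direction can be given.

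**Figure D2:**
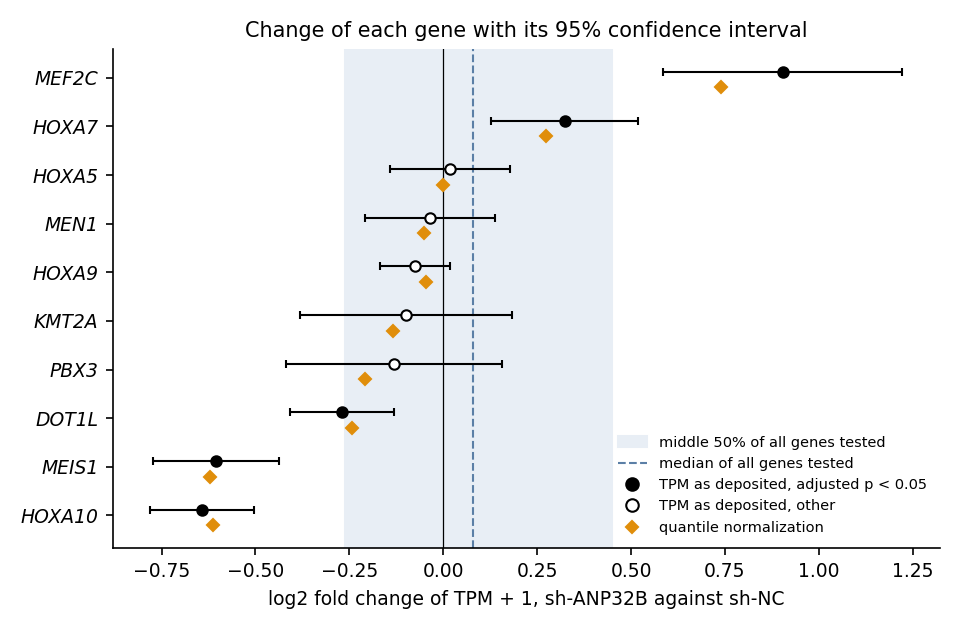
Log2 fold change of each gene with its 95% confidence interval (circles, filled where the adjusted p was below 0.05) and after quantile normalization (diamonds), over the middle 50% of all genes tested (band, -0.26 to 0.45) and their median (dashed, 0.08). Of the 10 genes, HOXA10 and MEIS1 lie left of the band and MEF2C lies right of it. DOT1L lies just left of the band's edge (-0.27), but inside the band after quantile normalization (-0.24). HOXA7 has an interval above 0 with its value inside the band.

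MEIS1 and PBX3 encode homeodomain proteins of the TALE class, which bind DNA together with HOXA9. MEIS1 (ENSG00000143995, chr2:66433452-66573869, plus strand) stood at 44.2 and 47.9 TPM in sh-NC and at 30.2 and 29.6 TPM in sh-ANP32B. Both knockdown libraries were well below both controls, with means of 46.0 ± 2.63 and 29.9 ± 0.434 TPM (SD, n = 2 each). MEIS1 fell by 0.61 on the log2 scale (SE 0.0674, limma adjusted p = 0.00138) to 65.0% of the control mean, a size close to that of HOXA10. The antisense gene MEIS1-AS2 shares 1437 exonic bases with it and stood at 0.336 and 1.56 TPM in sh-NC and at 0 and 0.144 TPM in sh-ANP32B. Within libraries, MEIS1 over HOXA9 was 0.240 and 0.258 in sh-NC and 0.172 and 0.168 after knockdown, whereas MEIS1 over HOXA10 was 0.277 and 0.298 against 0.309 and 0.276, with overlapping groups.

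PBX3 (ENSG00000167081, chr9:125747345-125967377, plus strand) stood at 15.9 and 16.6 TPM in sh-NC and at 16.2 and 13.4 TPM in sh-ANP32B. The groups overlapped, and the log2 fold change was -0.13 (SE 0.115, limma adjusted p = 0.391; 95% confidence interval from -0.42 to 0.16). PBX3 over MEIS1 was accordingly higher in both knockdown libraries, at 0.536 and 0.453 against 0.359 and 0.347 in sh-NC.

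MEF2C (ENSG00000081189, chr5:88717117-88904257, minus strand) was the lowest of the 10 genes in control cells and moved most. It stood at 5.95 and 5.65 TPM in sh-NC and at 10.9 and 12.6 TPM in sh-ANP32B. It rose to 203% of the control mean, with a log2 fold change of 0.90 (SE 0.127, limma adjusted p = 0.00316), and 91.1% of all genes tested had a lower one. The antisense gene MEF2C-AS1 shares 469 exonic bases with it and stood at 0.294 and 0.763 TPM against 2.56 and 1.78 TPM.

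Of the genes of the fusion and its cofactors, KMT2A and MEN1 did not pass the test and DOT1L fell. KMT2A (ENSG00000118058, chr11:118436456-118526832, plus strand) stood at 21.1 and 26.1 TPM in sh-NC and at 21.5 and 22.2 TPM in sh-ANP32B. The control libraries enclosed both knockdown libraries, and the log2 fold change was -0.10 (SE 0.113, limma adjusted p = 0.513; 95% confidence interval from -0.38 to 0.18). A value per gene cannot separate the intact KMT2A transcript from the KMT2A-AFF1 fusion transcript. The same-strand gene ENSG00000285827, which shares 5755 exonic bases with KMT2A, was not listed. AFF1, the fusion partner, stood at 46.9 and 50.6 TPM in sh-NC and at 38.7 and 38.7 TPM in sh-ANP32B, a log2 fold change of -0.33 (SE 0.0627, limma adjusted p = 0.00953), and its value too holds any fusion reads. AFF1 over KMT2A was 2.22 and 1.94 in sh-NC and 1.80 and 1.74 after knockdown.

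MEN1 (ENSG00000133895, chr11:64803510-64811294, minus strand), which encodes menin, stood at 36.3 and 36.8 TPM in sh-NC and at 34.1 and 37.2 TPM in sh-ANP32B. The groups overlapped, with a log2 fold change of -0.04 (SE 0.0690, limma adjusted p = 0.707; 95% confidence interval from -0.21 to 0.14). DOT1L (ENSG00000104885, chr19:2163933-2232578, plus strand) was the highest of the 3, at 87.9 and 94.3 TPM in sh-NC and at 73.9 and 76.9 TPM in sh-ANP32B. It fell by 0.27 on the log2 scale (SE 0.0559, limma adjusted p = 0.0123) to 82.7% of the control mean, with no overlap between the groups. The call was lost without sh-NC replicate 2 (-0.22, limma adjusted p = 0.0556) and with a variance model without a trend (limma adjusted p = 0.0631). The opposite-strand gene PLEKHJ1, which shares 529 exonic bases with DOT1L, stood at 86.6 and 84.2 TPM against 69.4 and 72.6 TPM.

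The order of levels was therefore nearly kept. In sh-NC it ran HOXA9, HOXA10, DOT1L, MEIS1, MEN1, HOXA5, KMT2A, HOXA7, PBX3 and MEF2C, and no neighbours in that order had overlapping libraries. In sh-ANP32B, MEIS1 stood below MEN1 and HOXA5, and the other genes held their relative order. There the libraries of MEN1 and HOXA5 overlapped, as did those of KMT2A and HOXA7.

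The other HOXA genes and their antisense neighbours were examined as a list of 13 genes of the same cluster. Of these, 12 were found by symbol and tested, and 3 fell (against 19.7% of all genes), 5 rose (against 26.0%) and 4 did not pass the test, with a median log2 fold change of 0.31. HOXA10-HOXA9 was not found under that symbol. Whether the unnamed ENSG00000257184, described above, is that gene was not settled, and the counts leave it out. HOXA2 lies toward the 3′ end of the cluster, whose genes are the first to be used in development, and it rose. HOXA2 stood at 1.18 and 0.996 TPM in sh-NC and at 4.78 and 3.96 TPM in sh-ANP32B, 402% of the control mean (log2 fold change 1.36, SE 0.192, limma adjusted p = 0.00319). HOXA3 stood at 20.7 and 31.1 against 41.3 and 34.6 TPM, which did not overlap but did not pass the test (0.55, SE 0.194, limma adjusted p = 0.0644), though it did without sh-NC replicate 2 (limma adjusted p = 0.00789).

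At the 5′ end, the posterior genes HOXA11 and HOXA13 fell as HOXA10 did, though by less. HOXA11 stood at 50.3 and 52.1 TPM in sh-NC and at 40.6 and 43.0 TPM in sh-ANP32B (log2 fold change -0.29, SE 0.0604, limma adjusted p = 0.0129), a call lost without sh-NC replicate 2 or sh-ANP32B replicate 1 (limma adjusted p up to 0.0609). HOXA13 stood at 67.1 and 67.4 against 54.0 and 53.1 TPM (-0.32, SE 0.0490, limma adjusted p = 0.00409). In the middle of the cluster, HOXA4 (7.72 and 7.47 against 8.28 and 5.06 TPM) and HOXA6 (23.8 and 27.7 against 22.5 and 26.1 TPM) overlapped between the groups, as HOXA5 did. Over the 10 HOXA genes described here, the paralogue number and the log2 fold change had a Spearman rho of -0.782 and a Pearson r of -0.730, and -0.700 and -0.660 without HOXA2, the gene with the highest fold change. After quantile normalization they were -0.624 and -0.681. This relation was looked at after the values were seen, and its points share the same 4 libraries and in part the same reads, so it is given as a description.

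**Figure D3:**
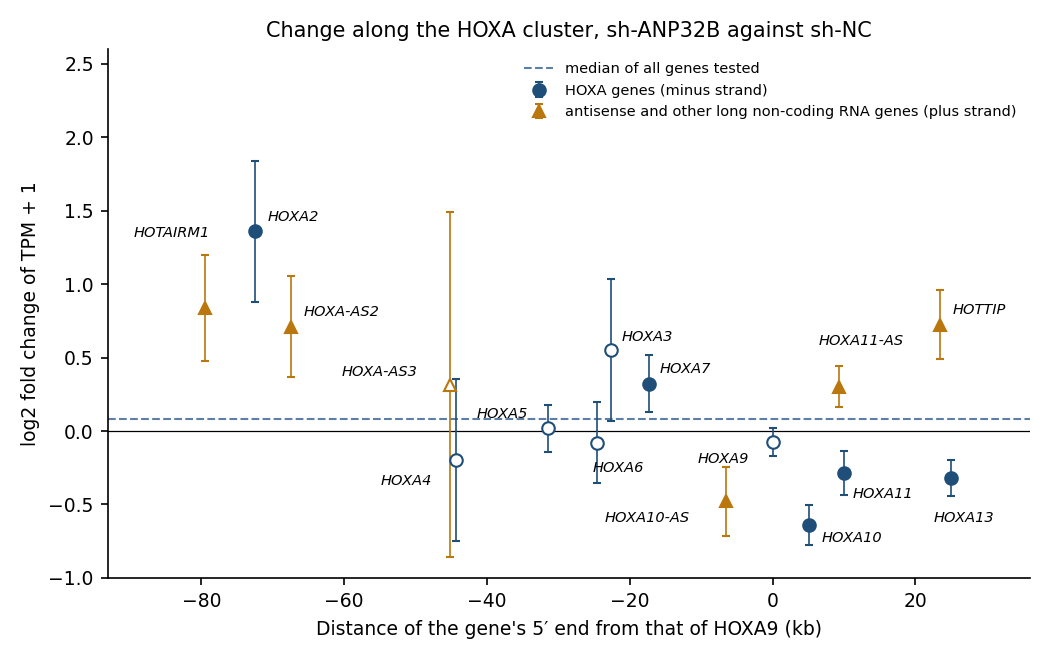
Log2 fold change (with its 95% confidence interval) of the genes of the HOXA cluster against the distance of each gene's 5′ end from that of HOXA9 in kb, for HOXA genes on the minus strand (circles) and non-coding genes on the plus strand (triangles), filled where the adjusted p was below 0.05. The 5′ end was taken as the outer end of the gene's annotated span, over all its transcripts. Such spans overlap, so the positions do not always follow gene order, and HOXA3 falls between HOXA6 and HOXA7. HOXA9 too has a RefSeq start inside its span. HOXA2 at the left lies above 0 and HOXA10, HOXA11 and HOXA13 at the right lie below it. The non-coding genes HOXA11-AS and HOTTIP at the right lie above 0.

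The non-coding genes of the plus strand did not follow their neighbours throughout. HOTAIRM1, a myeloid non-coding RNA from the 3′ end of the cluster, stood at 7.13 and 9.16 TPM in sh-NC and at 14.4 and 16.1 TPM in sh-ANP32B (log2 fold change 0.84, SE 0.145, limma adjusted p = 0.00654), and HOXA-AS2 rose by 0.71 (SE 0.138, limma adjusted p = 0.00974). HOXA10-AS, which shares 608 exonic bases with HOXA10 and 422 with HOXA9, stood at 20.01 and 22.6 against 15.3 and 14.6 TPM (-0.48, SE 0.0949, limma adjusted p = 0.0104). Both that gene and HOXA10 were thus lower. At the 5′ end the signs parted. HOXA11-AS stood at 111 and 119 against 146 and 138 TPM (0.30, SE 0.0552, limma adjusted p = 0.00790, or 0.0530 with a variance model without a trend, where the call was lost), while HOXA11, with which it shares 726 exonic bases, fell. HOTTIP, a non-coding RNA known to act on the 5′ HOXA genes, stood at 9.49 and 9.28 against 16.3 and 16.0 TPM (0.72, SE 0.0945, limma adjusted p = 0.00237), while HOXA13 beside it fell.

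Summed over these 10 HOXA genes, the level was 567 and 584 TPM in sh-NC and 501 and 507 TPM after knockdown. The sum was lower in both knockdown libraries, and its makeup differed too. HOXA10 made up 28.1% and 27.5% of it in sh-NC and 19.6% and 21.2% after knockdown, whereas HOXA9 made up 32.4% and 31.8% against 35.0% and 34.7%. HOXA2 and HOXA3 together made up 3.86% and 5.49% against 9.20% and 7.61%. Most of that share was HOXA3, which did not pass the test. These shares are taken within each library and do not move with a common scaling factor.

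**Figure D4:**
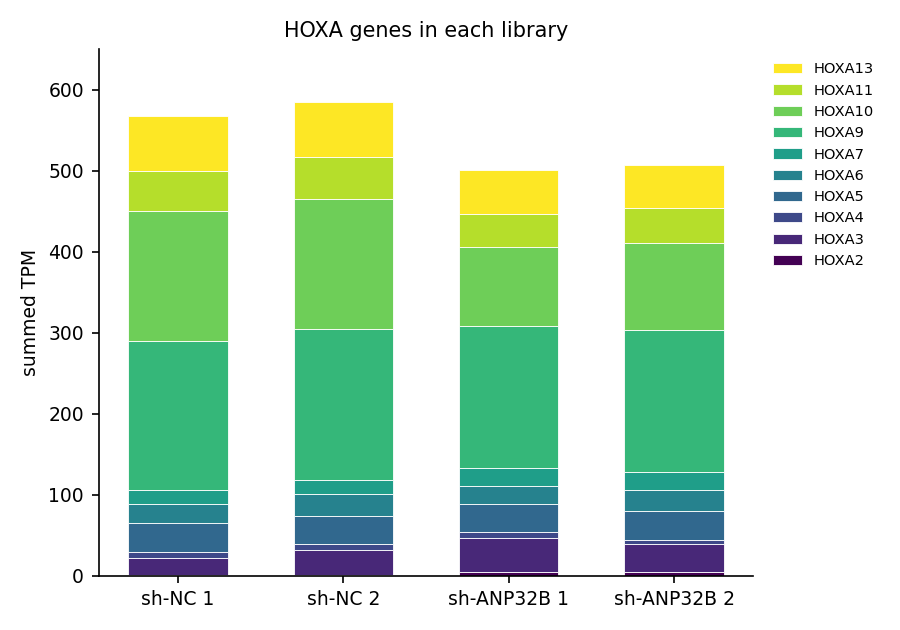
Summed TPM of 10 HOXA genes in each library, stacked by gene from HOXA2 at the bottom to HOXA13 at the top. The bars stand at 567 and 584 TPM in sh-NC and at 501 and 507 TPM after knockdown, and the HOXA10 segment is the one that shrinks most.

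Few genes of the other HOX clusters were expressed. Of 28 HOXB, HOXC and HOXD genes, 8 were listed and 6 tested, of which 3 rose (against 26.0% of all genes), none fell and 3 did not pass the test, with a median log2 fold change of 0.09. The share called was near the 45.7% of all genes. HOXC4 stood at 24.7 and 24.2 TPM in sh-NC and at 35.4 and 35.2 TPM in sh-ANP32B (0.51, limma adjusted p = 0.00200), and HOXC6, which shares 484 exonic bases with it on the same strand, at 16.4 and 13.8 against 24.4 and 23.2 TPM (0.63, limma adjusted p = 0.00571). HOXC10 stood at 33.8 and 31.1 against 38.3 and 38.8 TPM (0.24, limma adjusted p = 0.0338). The call was lost with quantile normalization (limma adjusted p = 0.0623) and with median-of-ratios scaling (limma adjusted p = 0.159). It was also lost with the replicate number as a block, with a variance model without a trend and without any library other than sh-NC replicate 1.

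Of 9 other TALE genes, 5 were tested, and 2 rose (against 26.0% of all genes), none fell and 3 did not pass the test, a share called near the 45.7% of all genes. MEIS3, a paralogue of MEIS1, stood at 1.07 and 0.437 TPM in sh-NC and at 6.22 and 6.42 TPM in sh-ANP32B, so the 2 MEIS genes moved in opposite directions, but MEIS3 stayed far below MEIS1 in level (log2 fold change 2.08, SE 0.234, limma adjusted p = 0.00142). MEIS3 has 2 named pseudogenes that could share reads. TGIF1, a TALE repressor, stood at 33.6 and 29.1 against 39.0 and 39.3 TPM (0.32, limma adjusted p = 0.0285). The call was lost with median-of-ratios scaling (limma adjusted p = 0.103), with a variance model without a trend and without sh-NC replicate 2 or either sh-ANP32B library.

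The list of menin partners and KMT2 complex subunits held 9 genes. All were tested, and 5 fell, none rose and 4 did not pass the test (19.7% of all genes fell), with a median log2 fold change of -0.22. PSIP1 encodes LEDGF, the chromatin protein that tethers menin and KMT2A to DNA. It stood at 144 and 145 TPM in sh-NC and at 65.1 and 70.4 TPM in sh-ANP32B, 46.9% of the control mean (-1.08, SE 0.0535, limma adjusted p = 1.53e-04), and it has 1 named pseudogene. PSIP1 over MEN1 was 3.97 and 3.94 in sh-NC and 1.91 and 1.89 after knockdown. WDR5, a core subunit that KMT2 enzymes share, stood at 69.5 and 67.6 against 52.3 and 49.3 TPM (-0.43, limma adjusted p = 0.00242). DPY30, a further core subunit, stood at 57.7 and 57.8 against 44.8 and 39.5 TPM (-0.45, limma adjusted p = 0.00555), with 50.8% of its exonic bases shared with MEMO1 on the same strand. HCFC1 and ASH2L fell by 0.25 and 0.20 on the log2 scale, but HCFC1 lost its call with a variance model without a trend (limma adjusted p = 0.0566), and ASH2L with that model and without any 1 library (limma adjusted p up to 0.0955).

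Of 21 genes of the elongation complexes that act with KMT2A fusions and DOT1L, 20 were tested, and 6 fell (against 19.7% of all genes), 3 rose (against 26.0%) and 11 did not pass the test, with a median log2 fold change of -0.00. The share called was near the 45.7% of all genes. MLLT1 (ENL), a reader of histone acylation and a fusion partner itself, stood at 62.8 and 67.1 TPM in sh-NC and at 45.2 and 43.7 TPM in sh-ANP32B (-0.54, limma adjusted p = 0.00134). AFF4, the scaffold of the super elongation complex, stood at 8.76 and 8.36 against 13.1 and 12.7 TPM (0.54, limma adjusted p = 0.00951), the opposite direction to AFF1. CDK9, the kinase of that complex, stood at 54.8 and 56.0 against 68.9 and 72.2 TPM (0.34, limma adjusted p = 0.00420). LEO1, a PAF1 complex subunit, and EAF1, an ELL partner, fell by 0.37 and 0.36 on the log2 scale, and both calls were lost without sh-NC replicate 1. LEO1 also lost its call without sh-NC replicate 2 or sh-ANP32B replicate 1, and with a variance model without a trend.

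Of 18 other genes known as targets of KMT2A fusions, 15 were tested, and 2 fell (against 19.7% of all genes), 4 rose (against 26.0%) and 9 did not pass the test, with a median log2 fold change of 0.14. The share called was near the 45.7% of all genes. BCL2, the survival factor, stood at 10.3 and 10.4 TPM in sh-NC and at 4.87 and 4.41 TPM in sh-ANP32B (-1.01, limma adjusted p = 0.00201), and MYC at 376 and 370 against 239.9 and 236 TPM (-0.65, limma adjusted p = 1.91e-04). LMO2, a bridging protein of hematopoietic transcription complexes, stood at 85.3 and 87.7 against 177 and 175 TPM (1.02, limma adjusted p = 1.04e-04), and LAMP5, a surface protein of KMT2A-rearranged leukemia, at 16.7 and 12.6 against 32.4 and 32.6 TPM (1.11, limma adjusted p = 0.00184). CPEB2 rose by 0.69, a call lost without sh-ANP32B replicate 1 (limma adjusted p = 0.0572). FLT3 and MYB, often set beside HOXA9 and MEIS1, did not pass the test, with FLT3 at 6.20 and 6.30 against 5.52 and 5.53 TPM (-0.15, limma adjusted p = 0.383) and MYB at 295 and 284 against 267 and 282 TPM (-0.08, limma adjusted p = 0.210; its sign turned with quantile normalization and it passed, lower, with median-of-ratios scaling).

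Transcription factors of monocyte and granulocyte maturation were listed for 8 of 9 genes. Of the 8, 3 rose, none fell and 5 did not pass the test (26.0% of all genes rose), with a median log2 fold change of 0.12. SPI1 (PU.1) stood at 250.3 and 257 against 361 and 361 TPM (0.51, limma adjusted p = 3.35e-04), and CEBPB at 155 and 151 against 212 and 212 TPM (0.47, limma adjusted p = 5.22e-04). EGR1 rose by 0.24 (limma adjusted p = 0.0429), a call lost with quantile normalization, with median-of-ratios scaling and without any 1 library. It was also lost with the replicate number as a block and with a variance model without a trend. CEBPA, the highest of the list, stood at 407 and 413 against 438 and 434 TPM and did not pass the test (0.09, limma adjusted p = 0.0822). It passed, higher, with quantile normalization (limma adjusted p = 0.0466) and without mitochondrial genes (limma adjusted p = 0.0325), and its sign turned with median-of-ratios scaling, so that no direction can be given.

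**Figure D5:**
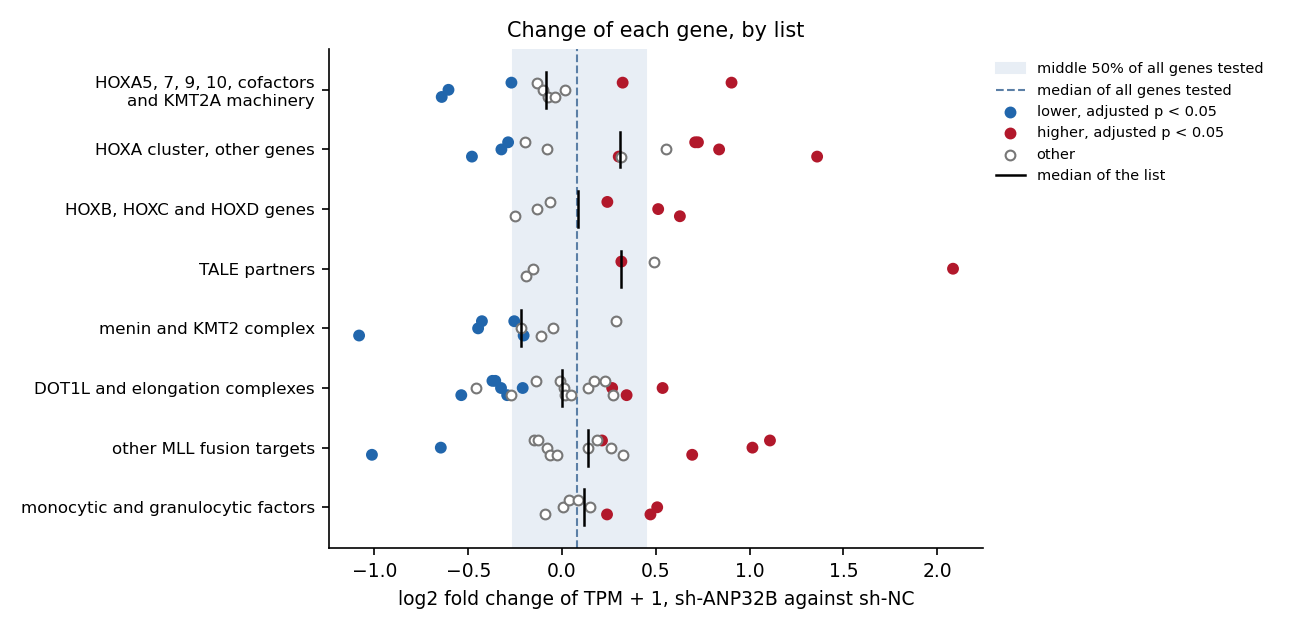
Log2 fold change of each gene tested, 1 row per list, with genes that fell in blue, genes that rose in red, others open and the list's median as a black bar, over the middle 50% (band) and the median (dashed) of all genes tested. The menin and KMT2 complex list has the lowest median (-0.22), with PSIP1 farthest left at -1.08, and MEIS3 is farthest right at 2.08.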

How the data were processed

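RNA from MV4-11 cells was sequenced at Novogene, and 4 libraries were analysed, 2 sh-NC and 2 sh-ANP32B, grouped by their labels. The authors used HISAT2 (2.0.5) for alignment to hg38, and the deposited values are TPM, 1 per gene and library. The quantifier, the annotation and the handling of strand are not given in the sources used here. The unit was read from the values, which sum to 998546, 998353, 997699 and 997271. The columns marked S3 were taken as sh-ANP32B, since the labels hold no other knockdown. Because TPM are not counts, the study's DESeq2 test was not repeated. limma (3.58.1, R 4.3.3) was fitted to log2(TPM + 1) with lmFit and eBayes with a trend, over the 16937 genes that reached 1 TPM in 2 libraries or more, with Benjamini-Hochberg adjustment over all of them. The exact permutation test of 2 against 2 libraries cannot go below a two-sided p of 0.33. Depth is unknown, so the precision rests on the spread between libraries. The fit was also run on simulated log2(TPM + 1) values in which only a small part of the genes was changed. The response here was far broader, so that run does not show how the test behaves in these data. Of 18885 identifiers, 17290 had a symbol. Positions and overlaps come from GENCODE 44 on hg38, and promoters from RefSeq (GRCh38.p14). Tables and plots were made in Python (3.11.15) with pandas (2.3.3) and matplotlib (3.10.9).

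The 10 genes and the 7 other lists were chosen with earlier results of these data known. The text names all 10 genes, ANP32B, the tested genes of the HOXA cluster list and, per list, the 4 largest log2 fold changes among genes with an adjusted p below 0.05 and no overlap between groups, plus the gene of highest mean TPM. FLT3, MYB, ASH2L and AFF1 were added after their values were seen. Some genes are not reported here, and the list counts leave them out. No block was fitted in the main test, and same-numbered libraries had a correlation of deviations of -0.0232. Alternatives tried were the replicate block, a pseudocount of 0.1, other filters and scalings, no trend, limma's treat test against 0.5 and each library left out in turn.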

Additional observations from a re-analysis of the deposited data

How the results depend on the processing

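Each of the 10 genes was tested under 13 alternatives. HOXA10, MEIS1 and MEF2C kept their direction and stayed past the threshold under all except limma's treat test, which asks for a log2 fold change beyond 0.5 (limma adjusted p = 0.182, 0.465 and 0.101). Under treat, 0 of the 10 genes were lower and 0 higher, and 481 genes of the whole table were lower and 950 higher. Leaving out each library in turn gave log2 fold changes from -0.71 to -0.58 for HOXA10, from -0.66 to -0.55 for MEIS1 and from 0.81 to 1.00 for MEF2C, with 2 to 3 of the 10 genes lower and 1 higher each time, since HOXA7 was lost, and with 2560 to 2838 lower and 3174 to 3555 higher in the whole table. With median-of-ratios scaling 1 gene was higher. The sign of HOXA5 turned with quantile normalization (-0.000346), with median-of-ratios scaling (-0.0770) and without some libraries (-0.0200 to 0.0553). KMT2A ranged from -0.25 to 0.0470 and MEN1 from -0.10 to 0.0258 over the left-out libraries. The cause of these changes was not tested. A lone library left in a group was assumed to vary like the other group. With the replicate number as a block, 3 of the 10 genes were lower and 2 higher, as without it (limma adjusted p = 0.00222 for HOXA10 and 0.041 for HOXA7), and with 2 pairs the numbers mark no known pairing. Depth is unknown, and 2 libraries a group limit what small differences can be seen.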
